A study of Brassica rapa subsp. pekinensis with 6 samples.

Results

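In Chinese cabbage, 68 genes had low transcript signals at 28 °C after 12 °C in both inbred lines examined, while their signals at 22 °C and 12 °C lay within a set window of each other. These 68 genes were chosen by their microarray values, out of 26948 genes whose probe intensity (PI) exceeded 500 in 1 or more of the 6 samples, the array holding 41173 genes. PI is the brightness of the probes of a gene on a linear scale. With 50 added to every PI, a gene was taken when its value at 28 °C was at most 0.4 times that at 22 °C and at most 0.4 times that at 12 °C, in Chiifu and in Kenshin, and when its ratio of 12 °C to 22 °C lay above 1/3 and below 3. All ratios below have 50 added to both PI values unless another scale is named, and where 3 PI values of a line are given together, they are those of the 22 °C, 12 °C and 28 °C samples in that order. The low value at 28 °C was therefore fixed by the choice of genes and is described here without a test.

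The samples came from Chiifu and Kenshin, inbred lines of Brassica rapa ssp. pekinensis, the first of temperate and the second of subtropical and tropical origin. Plants of each line were grown for about 3 weeks at 22 °C under long days, were moved to 12 °C for 2 days, and were then moved to 28 °C for 3 h, and each of these stages gave 1 sample of a line. Shoots of several plants were taken, total RNA was labelled with Cy3, and the probes had been designed at the 3′ ends of genes from Chiifu sequence. There was no sample moved directly from 22 °C to 28 °C, so every 28 °C sample had also been at 12 °C, and the 3 h at 28 °C and the later hour of sampling cannot be told apart. With 1 sample for each line and temperature, no difference between temperatures within a line has a replicate error. The methods describe repeats that were averaged, whereas the labels name 1 sample for each condition, so what each value averages is not known here. The design text of the series also speaks of a water withdrawal, which no sample label names, and the groups here follow the labels. In whole shoots, fewer cells of a type and less RNA per cell cannot be told apart.

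Plants read moderate warmth partly through the photoreceptor phytochrome B and through transcription factors of the PIF family, as worked out mainly in Arabidopsis, and stronger heat through heat shock factors that raise chaperone genes. The steady level of an mRNA falls when its synthesis slows, when its decay speeds up, or both, and an array reads only the level. Levels of many shoot mRNAs, among them those of cold-responsive and clock-controlled genes, can move within hours of a change in temperature. None of the 68 genes could be given a name or a role. Of the 99 identifiers that the study names, 99 were on the array and 0 were among the 68 genes, and 0 of the 68 matched a gene of the RefSeq table used here. The genes are therefore called by their array identifiers.

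The 6 samples had similar overall distributions, with median PI over all genes between 965 and 1034 and between 23669 and 24035 genes over 500. The array also carried 15 control features, among them a random-sequence feature with PI between 26.9 and 30.5, which serves as a floor. Across the other 14 control features, the 28 °C signal in Chiifu was higher than that at 12 °C in 13, with a median ratio of 1.54 and a range of 0.676 to 1.94 (nothing added). In Kenshin the corresponding median was 0.962, with a range of 0.715 to 5.65. The 68 genes had lower signals at 28 °C in both lines, and the part of these control differences in the result was not tested.

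The median PI of the 68 genes was 2388, 3635 and 513 in Chiifu. In Kenshin the medians were 4100, 3777 and 678. Over all 26948 genes the 6 medians were nearly flat, from 3179 to 3258. The individual genes covered a wide range of levels, 264 to 15138 for Chiifu and 340 to 22247 for Kenshin at 22 °C. After warming the ranges were 51.1 to 5225 for Chiifu and 52.9 to 5753 for Kenshin. For Chiifu the median ratio of 28 °C to 22 °C was 0.284 and that of 28 °C to 12 °C 0.207, and for Kenshin they were 0.213 and 0.205. The order of the genes by level was much the same in the lines, with a Pearson's r across the 68 genes of 0.79, 0.91 and 0.88 for log2 values at 22, 12 and 28 °C. These correlations are across genes within single samples, share probes, and are given as a description.

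**Figure D1:**
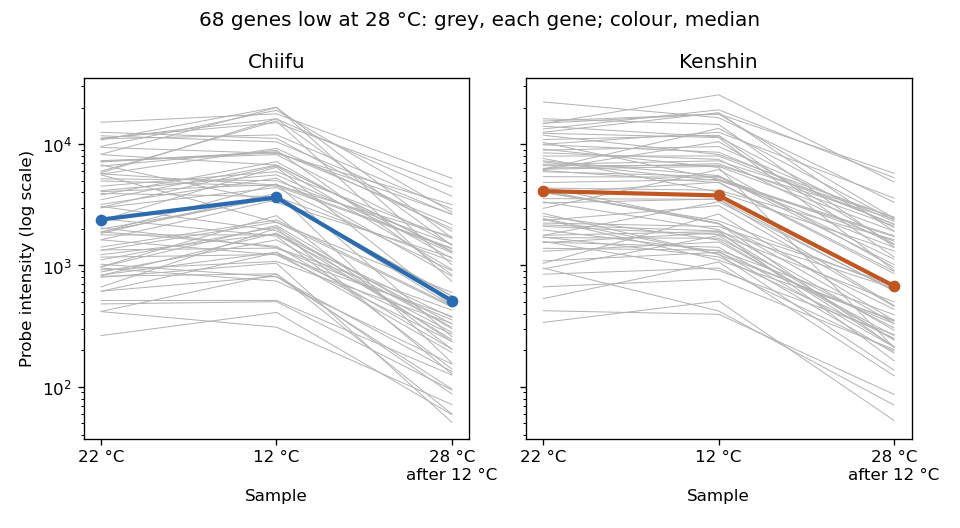
PI (log scale) of each of the 68 genes in the 22 °C, 12 °C and 28 °C samples of Chiifu (left) and Kenshin (right). Grey lines are single genes and the coloured line is their median, which goes from 2388 to 3635 to 513 in Chiifu and from 4100 to 3777 to 678 in Kenshin; the drop at the right was fixed by the choice of genes.

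Calling these genes shut down at 28 °C goes further than the values. At 28 °C, PI was still over 500 in 34 of the 68 genes in Chiifu and in 39 in Kenshin, and over 1000 in 26 and 29 genes. It was at or below 500 in 34 of the 68 genes in Chiifu and in 29 in Kenshin. Of all genes, only 12.2% in Chiifu and 10.9% in Kenshin were that low at 28 °C. The 68 genes were chosen for low values at 28 °C, so this comparison is a description. In 32 genes PI at 28 °C was over 500 in both lines, and in 27 it was at or below 500 in both. A PI within 2 times that of the random feature was reached by 3 genes in Chiifu, namely Bra017523, Bra028290 and Bra019025, and by 1 gene in Kenshin, Bra032680. No gene of the 68 fell to the random feature itself. The 68 genes were thus lowered to a range of levels, from near the floor to 5753.

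Depth of the fall differed among the genes. The largest of the 4 ratios of a gene (28 °C to 22 °C and 28 °C to 12 °C, in each line) was at most 0.2 in 6 genes, between 0.2 and 0.3 in 19, and between 0.3 and 0.4 in 43. A value of at most 0.2 times both earlier samples was reached by 13 genes in Chiifu and 19 in Kenshin. Depth showed no clear relation to level, as the mean log2 PI at 22 °C and 12 °C and the largest ratio had r = -0.03 and Spearman's rho = 0.06 across the 68 genes. Had the signals, with nothing added, fallen evenly on a log scale over the 3 h at 28 °C, they would have halved every 1.23 h in Chiifu (median, range 0.646 to 2.14) and every 1.27 h in Kenshin (range 0.608 to 2.22). That time was under 1 h in 16 genes in Chiifu and in 11 in Kenshin.

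Bra026701 had the lowest value of the largest ratio. Its PI was 5989, 15519 and 740 in Chiifu and 16177, 14522 and 1424 in Kenshin. The 28 °C samples were the lowest of both lines, at 0.131 and 0.0507 times the 22 °C and 12 °C values in Chiifu and at 0.0908 and 0.101 times in Kenshin, yet neither came near the floor.

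Bra001886 was among the brightest genes and also among those with the deepest falls. Its PI was 10823, 20147 and 1016 in Chiifu, and 14878, 17703 and 2449 in Kenshin. Chiifu had a ratio of 28 °C to 12 °C of 0.0528 and Kenshin one of 0.141, so the drop was deeper in Chiifu. Bra019162 had the same leaning, with PI of 1838, 3945 and 157 in Chiifu and 3275, 3534 and 615 in Kenshin, and ratios of 28 °C to 12 °C of 0.0519 and 0.186.

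Bra030496 leaned the other way. Its PI was 1875, 4702 and 259 in Chiifu, whereas Kenshin had 9093, 6428 and 211. The Kenshin ratio of 28 °C to 22 °C, 0.0285, was the smallest of the 4 kinds of ratio over all 68 genes. At 28 °C the lines differed little, although Kenshin had been well above Chiifu at 22 °C.

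The other 4 genes of the 8 with the deepest falls spanned low and high levels. Bra017523 had PI of 799, 1045 and 51.1 in Chiifu and 2437, 1239 and 137 in Kenshin, and its Chiifu value at 28 °C was the lowest of all 68 genes. Bra004094 had PI of 1892, 1441 and 205 in Chiifu and 1541, 1860 and 242 in Kenshin. Bra010383 had PI of 3063, 1934 and 330.3 in Chiifu and 2161, 1924 and 164 in Kenshin. Both were within 1.5-fold between the lines at 22 °C and 12 °C, and Bra010383 ended lower in Kenshin. Bra033350 had nearly the same profile in both lines, with PI of 7312, 8201 and 1493 in Chiifu and 8473, 7482 and 1486 in Kenshin.

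**Figure D2:**
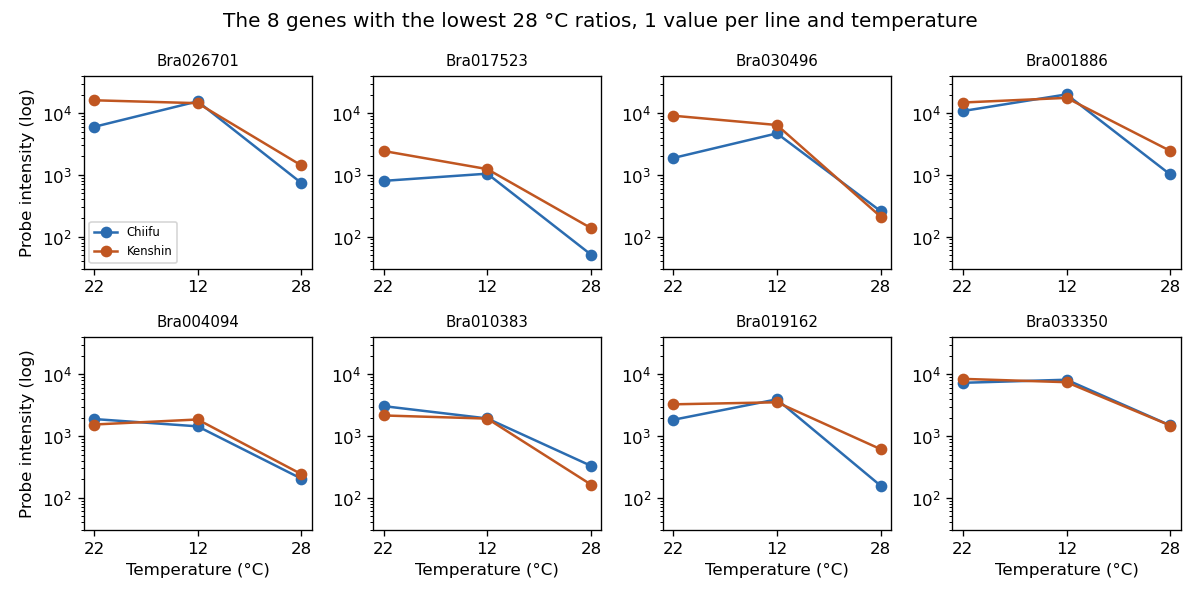
PI (log scale) of the 8 genes with the lowest value of their largest 28 °C ratio, with 1 point for each line and temperature (blue, Chiifu; orange, Kenshin; no error bar, as each point is 1 sample). Bra033350 ends at 1493 in Chiifu and 1486 in Kenshin, whereas Bra017523 ends at 51.1 and 137.

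The 6 genes with the highest mean PI at 22 °C and 12 °C included Bra001886. Bra023441 had PI of 8251, 20014 and 1688 in Chiifu and 14721, 25483 and 4874 in Kenshin, the highest 12 °C value of the 68 genes. Bra011558 had PI of 9585, 19014 and 2749.9 in Chiifu and 22247, 16520.5 and 3319 in Kenshin. In Chiifu both genes were highest at 12 °C, while in Kenshin Bra011558 was highest at 22 °C. Bra023798 had PI of 5809, 16172 and 1468 in Chiifu and 12520.3, 18141 and 1913 in Kenshin. Bra032670 and Bra003009 kept the highest signals at 28 °C among these 6, with 5225 and 4435 in Chiifu and 5753 and 5286 in Kenshin, down from 17760.5 and 15001 at 12 °C in Chiifu and from 17709.6 and 19171 in Kenshin.

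The rule was met in Chiifu by 708 genes (2.63% of 26948) and in Kenshin by 384 (1.42%), and the 68 genes are those common to both lists, that is, 9.60% of the Chiifu list and 17.7% of the Kenshin list. Of the 640 genes that met it in Chiifu and not in Kenshin, 338 were below both earlier samples in Kenshin as well, 36 of them at 0.5 times or less, and the median of their larger ratio in Kenshin was 0.974. Of the 316 genes that met it in Kenshin and not in Chiifu, 227 were below both earlier samples in Chiifu, 56 of them at 0.5 times or less, and the median of their larger ratio in Chiifu was 0.738. Over all genes this median was 1.15 in Kenshin and 1.14 in Chiifu. The shares of all genes below both earlier samples, or at 0.5 times or less, were not counted, so these counts are a description. Among the 640 and the 316 genes, 8 and 18 were at or below 0.4 in the other line too and were left out through their ratio of 12 °C to 22 °C in that line.

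The limit of 0.4 did not separate the genes from the rest. Just inside it, Bra003009 and Bra034380 had a largest ratio of 0.399 and Bra028907 one of 0.395. Just outside, with every other part of the rule met, Bra029430 had 0.401, and Bra011000 and Bra023475 had 0.402. Bra029430, for example, had PI of 5539, 12704 and 2189 in Chiifu and 11763, 15446 and 3293 in Kenshin, a profile like that of Bra034380, with 3010.2, 6607 and 928 in Chiifu and 4343, 4169 and 1633 in Kenshin. The values run on across the limit without a gap.

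**Figure D3:**
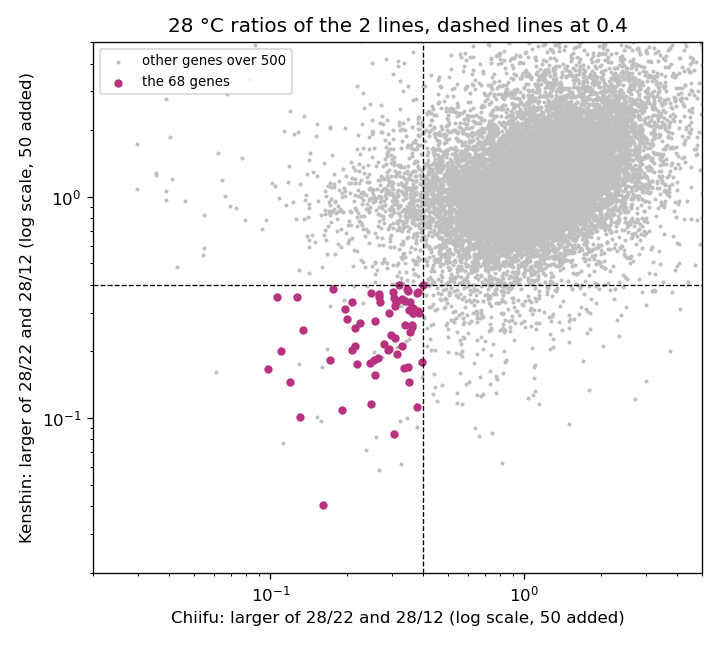
The larger of the ratios of 28 °C to 22 °C and 28 °C to 12 °C (50 added, log scale) in Chiifu on the horizontal and in Kenshin on the vertical axis, for the 68 genes (purple) and the other genes over 500 (grey; points beyond the axes are not shown). Dashed lines mark 0.4; the purple points fill the lower left corner by choice, up to 0.399, and grey points there lay outside the window for the ratio of 12 °C to 22 °C.

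Of the 68 genes, 38 had the lower larger ratio in Kenshin and 30 in Chiifu. Measured from 22 °C the fall was deeper in Kenshin in 42 of 68 genes, and measured from 12 °C in 24 of 68. The larger ratios of the lines were weakly related across the 68 genes, with r = 0.29 and Spearman's rho = 0.27. Both ratios of a line share its 28 °C sample, and the genes were all chosen to lie under 0.4.

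In 10 genes the fall was unequal, with a larger ratio in 1 line at most 1/2 of that in the other. By that measure the fall was deeper in Chiifu in 3, Bra019025, Bra029147 and Bra036517. It was deeper in Kenshin in 7, Bra009608, Bra011549, Bra021480, Bra028290, Bra028907, Bra030496 and Bra031307. These genes were singled out after their values were seen. From 12 °C alone, Bra011549 fell deeper in Chiifu, with ratios of 0.0856 in Chiifu and 0.116 in Kenshin. Bra036517 was then nearly equal, at 0.176 and 0.178. Bra021480 had PI of 7197, 8639 and 2177 in Chiifu and 12280, 11332 and 913 in Kenshin, so that the line with the higher signal before warming had the lower one after it. Bra031307 crossed in the same way, with PI of 7131, 8506 and 2649.8 in Chiifu and 10894, 11822 and 1174 in Kenshin. Bra019025 was nearly alike in the lines at 22 °C and 12 °C, with PI of 817 and 854 in Chiifu and 667 and 772 in Kenshin, and ended at 59.8 in Chiifu and 203 in Kenshin.

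The change from 22 °C to 12 °C was bounded by the rule, but within that window the counts in the lines leaned differently. The ratio of 12 °C to 22 °C had a median of 1.33 in Chiifu, where it ran from 0.412 to 2.91, and of 0.977 in Kenshin, where it ran from 0.469 to 2.48. Over all genes the medians were 0.986 and 1.01. The signal was higher at 12 °C than at 22 °C in 50 of the 68 genes in Chiifu (73.5%, against 47.9% of all genes) and in 31 in Kenshin (45.6%, against 52.0%). The ratio was larger in Chiifu than in Kenshin in 48 of 68 genes, compared with 47.8% of all genes. Each of these counts rests on the same single 22 °C and 12 °C samples of a line, which the rule also used, so they are a description, and whether the lines differ was not tested.

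At a cutoff of 2-fold, 13 of the 68 genes (19.1%) were higher at 12 °C than at 22 °C in Chiifu, where 4.59% of all genes were, and 2 were lower, where 4.35% of all genes were. In Kenshin 3 were higher, where 5.11% of all genes were, and 4 were lower, where 6.28% of all genes were. The Kenshin counts were thus close to the background, and the Chiifu count of higher genes was well above it. The background genes were not chosen for a low value at 28 °C as the 68 were, so the comparison is a description. At 1.5-fold the Chiifu counts were 27 higher (39.7%, against 11.5% of all genes) and 3 lower (4.41%, against 11.5%). The Kenshin counts were 8 higher (11.8%, against 12.3%) and 13 lower (19.1%, against 13.1%). Only 25 of the 68 genes stayed within 1.5-fold in both lines (36.8%), compared with 63.0% of all genes. Many of the 68 genes thus had a difference between 12 °C and 22 °C in at least 1 line besides their low value at 28 °C.

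At 12 °C, 3 genes were at least 1.5-fold higher in both lines (4.41%, against 4.36% of all genes), namely Bra019545, Bra013495 and Bra023441. Bra019545 had PI of 977, 2575 and 205 in Chiifu, close to 1041, 2656 and 352 in Kenshin, with ratios of 12 °C to 22 °C of 2.56 and 2.48. The profiles of the lines almost coincided. Bra013495 had ratios of 1.92 in both lines at a lower level, with PI of 419, 849 and 87.4 in Chiifu and 533, 1068 and 123 in Kenshin, and Bra023441 had ratios of 2.42 and 1.73.

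Bra034666 alone was at least 1.5-fold lower at 12 °C in both lines (1.47% of the 68 genes, against 5.48% of all genes). Its PI stepped down from 5581 to 2268 to 599 in Chiifu and from 4151 to 2200.2 to 436 in Kenshin, with ratios of 12 °C to 22 °C of 0.412 and 0.536. Bra029147 (2427, 1744 and 140.2 in Chiifu; 2407, 1106 and 356 in Kenshin) and Bra032171 (1024, 805 and 134 in Chiifu; 952, 422 and 70.8 in Kenshin) were next in order. Their ratios of 12 °C to 22 °C were 0.724 and 0.796 in Chiifu and 0.471 in Kenshin for both.

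Between 22 °C and 12 °C, 4 genes differed in opposite directions, at least 1.5-fold higher at 12 °C in Chiifu and at least 1.5-fold lower in Kenshin, where 0.939% of all genes did so, and no gene of the 68 did the reverse (0.601% of all genes). Bra011549 went from PI 665 at 22 °C to 2029 at 12 °C in Chiifu, whereas Kenshin went from 4048 to 2220. For Bra033351 the same values were 827 and 1850 in Chiifu but 4442 and 2226 in Kenshin. In both genes the lines lay far apart at 22 °C and close together at 12 °C. The other two, Bra036524 (1112 and 2074 in Chiifu; 2549 and 1622 in Kenshin) and Bra019058 (1334 and 2279 in Chiifu; 3993 and 2333 in Kenshin), had smaller differences of the same kind. Across the 68 genes the ratios of 12 °C to 22 °C of the lines showed little relation, with r = 0.09 and Spearman's rho = 0.04.

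**Figure D4:**
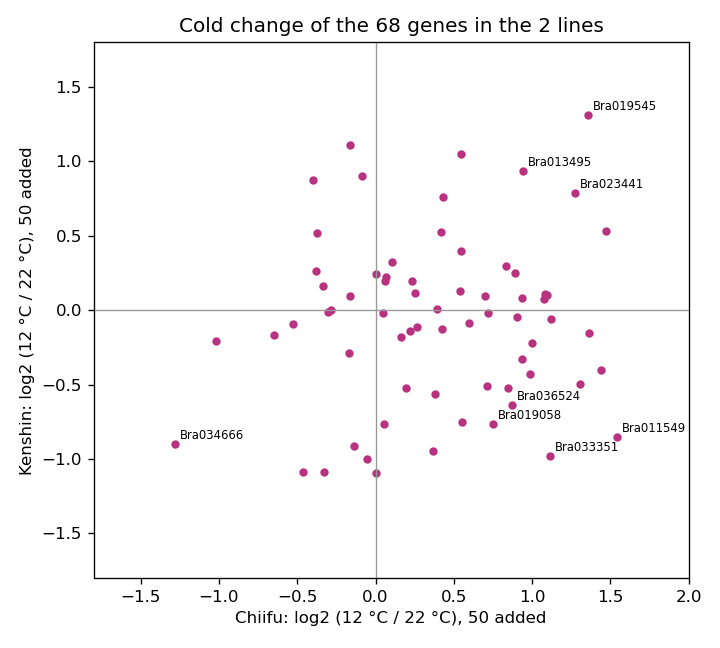
log2 ratio of 12 °C to 22 °C (50 added) of the 68 genes, Chiifu on the horizontal and Kenshin on the vertical axis, 1 point per gene. Most points lie right of 0 (50 of 68 higher at 12 °C in Chiifu), while 31 of 68 lie above 0 in Kenshin; the 4 named points at the lower right were higher in Chiifu and lower in Kenshin at 12 °C.

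The lines differed most at 22 °C. Kenshin was at least 2-fold above Chiifu at 22 °C in 20 of the 68 genes (29.4%), where 7.83% of all genes were, and at least 2-fold below it in 3, where 8.31% of all genes were. At 12 °C the counts were 3 above (4.55% of all genes) and 3 below (6.59%). At 28 °C they were 11 above (9.54%) and 4 below (7.67%). The rule set no limit on the ratio of the lines, but it used these same samples, and these counts are given without a test. At 22, 12 and 28 °C the median ratio of Kenshin to Chiifu was 1.47, 1.11 and 1.21, against 1.02, 1.04 and 1.02 over all genes. The excess in Kenshin was therefore largest in the 22 °C samples and near the background at 12 °C.

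Of the 20 genes with at least 2-fold more signal in Kenshin at 22 °C, 18 were within 2-fold at 12 °C, 14 were at least 1.5-fold higher at 12 °C than at 22 °C in Chiifu, and 6 were at least 2-fold above Chiifu at 28 °C too. The largest ratios of Kenshin to Chiifu at 22 °C were 10.8 for Bra028290, 5.73 for Bra011549, 5.12 for Bra033351 and 4.75 for Bra030496. The gap between the lines at 22 °C and the higher value at 12 °C in Chiifu share 1 sample, the 22 °C sample of Chiifu, so a low value there moves both. Only Bra028290 was at least 2-fold above Chiifu at all 3 temperatures, and only Bra028754 at least 2-fold below it.

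**Figure D5:**
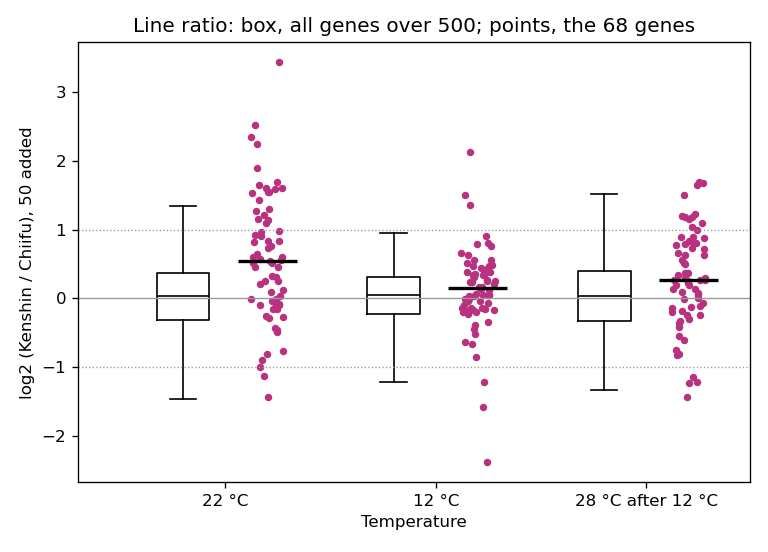
log2 ratio of Kenshin to Chiifu (50 added) at 22 °C, 12 °C and 28 °C after 12 °C: boxes show all genes over 500 (median, quartiles, whiskers from the 5th to the 95th percentile) and points the 68 genes, with their median as a bar. Dotted lines mark 2-fold; 20 points lie at or above the upper one at 22 °C, 3 at 12 °C and 11 at 28 °C.

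The rule set no limit on the difference between the lines averaged over the 3 temperatures, and this difference was tested, although the minimum of 500 can be met through 1 line alone. The test takes its error from how the line difference varies over temperatures, and the rule bounded the temperature ratios of both lines. The p-values of the 68 genes thus depend on their choice, and their shares beside those of all genes are a description. It was fitted with limma on log2(PI + 50) over all 26948 genes with temperature as a block and Benjamini-Hochberg adjustment. The 3 temperatures stand in for replicates of a line but are not, and the probes were designed on Chiifu, so that a difference in RNA level and a mismatch of a probe to Kenshin RNA cannot be told apart. Of the 68 genes, 4 were higher in Kenshin at an adjusted p under 0.05 (5.88%), where 2.44% of all genes were, and 3 were higher in Chiifu (4.41%), where 4.78% of all genes were. The estimate was above 0, that is, toward Kenshin, in 55 of 68 genes (80.9%), compared with 57.4% of all genes, and its median was 0.29 on the log2 scale, compared with 0.06. The unadjusted p was under 0.05 in 17 of 68 genes, a share close to the 21.9% of all genes. That count takes both directions together and shows no lean. The lean toward Kenshin was thus seen in the estimates, and single calls were few. Fits with a temperature left out have 1 residual degree of freedom and called fewer genes overall. Without the 28 °C samples limma left 2 calls for Kenshin and 1 for Chiifu among the 68 genes, where 433 and 953 of all genes were called. Without the 22 °C samples it left 0 in either direction, where 176 and 452 of all genes were called, and 9 and 4 of the 68 had an unadjusted p under 0.05. Without the 12 °C samples it also left 0, where 176 and 434 of all genes were called, and 20 and 5 of the 68 had an unadjusted p under 0.05. The estimates of the genes called with all samples kept their direction. For example, they were 1.89 and 2.54 for Bra028290 and -1.90 and -1.43 for Bra028754 without the 22 °C and without the 12 °C samples, respectively. Over the 68 genes, the estimate was above 0 in 53 without the 28 °C samples, 48 without the 22 °C samples and 51 without the 12 °C samples. For the fits with a temperature left out, the shares of all genes above 0 were not counted. Nor were those with an unadjusted p under 0.05, so these counts are a description.

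Bra028290 had the largest difference between the lines. Its PI was 264, 410.2 and 59.1 in Chiifu, whereas Kenshin had 3349, 1973 and 293. Kenshin was higher at all 3 temperatures, by 2.41 on the log2 scale (SE 0.38, limma adjusted p = 0.0344). All 3 Chiifu values were under 500, so this gene met the minimum intensity through Kenshin alone, the line in which it was higher, and its p is no independent support for that difference.

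Bra031290 and Bra018762 were also higher in Kenshin. Bra031290 had PI of 1627, 3481 and 558 in Chiifu and 6219, 6560.0 and 1920.3 in Kenshin, a difference of 1.5 on the log2 scale (SE 0.25, limma adjusted p = 0.0382). Bra018762 had PI of 515, 515 and 125 in Chiifu and 1311, 1561 and 264 in Kenshin, a difference of 1.21 (SE 0.19, limma adjusted p = 0.0355). Bra002257, with PI of 482, 504 and 94.2 in Chiifu and 1577, 908 and 270 in Kenshin, passed narrowly (1.18, SE 0.21, limma adjusted p = 0.0469). In all 3 genes each Kenshin value exceeded the Chiifu value of the same temperature. Bra022772, the last of the 4 genes with the greatest Kenshin excess at both 22 °C and 12 °C, had PI of 4056, 4651 and 1391 in Chiifu and 11839, 8209 and 2488 in Kenshin and did not pass.

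Of the genes higher in Chiifu, Bra028754 had PI of 3814, 7171 and 1144 in Chiifu but 1385, 1337 and 393 in Kenshin, a log2 difference of -1.75 for Kenshin minus Chiifu (SE 0.25, limma adjusted p = 0.0279). Bra009798 had PI of 836, 1287 and 272 in Chiifu and 424, 396 and 86.8 in Kenshin (-1.24, SE 0.19, limma adjusted p = 0.0336). It met the minimum intensity through Chiifu alone, and the same limit holds for its p. Bra013954, one of the brighter genes, had PI of 11092, 16144 and 3720.2 in Chiifu and 6316, 6898 and 2113 in Kenshin (-0.94, SE 0.17, limma adjusted p = 0.0470). All 3 were higher in Chiifu at every temperature and had a higher value at 12 °C than at 22 °C in Chiifu with nearly level values in Kenshin. Bra030338, the fourth gene by Chiifu excess, had PI of 9404, 8383 and 3171 in Chiifu and 6811, 7284 and 2505 in Kenshin and did not pass.

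Some of the 68 genes had neighbouring identifiers. Of these, 8 pairs had identifier numbers at most 20 apart, and Bra033350 and Bra033351 were consecutive. How many such pairs other sets of 68 genes would hold was not counted, so this number is a description. Bra033350 was alike in both lines, whereas Bra033351 was 5.12 times higher in Kenshin at 22 °C, so the members of this pair did not share a profile before warming. The next identifiers on either side, Bra033349 and Bra033352, were not among the 68 genes. Between Bra017520 and Bra017523, the identifiers Bra017521 and Bra017522 had PI from 37.7 to 222 and were under the level of 500 in all samples. Whether near identifiers mean neighbouring or duplicated genes is not given in the sources used here, and signal shared between similar genes was not tested.

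The genes that the study names served as a comparison, with results known. It picked the heat shock response genes, PIF6 and the HYH, COL1, COL2 and GA2OX1 genes on these same samples. The thermotolerance markers, heat shock proteins, phytochrome B and PIF4 genes it listed through Arabidopsis genes that respond to high temperature. Of 15 heat shock response genes, 15 were over 500 and 0 were among the 68, and their ratio of 28 °C to 12 °C had a median of 4.11 for Chiifu and 5.80 for Kenshin. Of 33 thermotolerance markers and heat shock proteins, 32 were over 500 and 0 were among the 68, with medians of 2.69 and 2.54. Of 5 genes for phytochromes and PIF factors, which sense and transmit warmth in Arabidopsis, 0 were among the 68, with medians of 1.07 and 1.33. The 6 genes named as HYH, COL1, COL2 and GA2OX1, which in Arabidopsis encode a light-signalling bZIP factor, CONSTANS-like proteins and a gibberellin-inactivating enzyme, had ratios of 28 °C to 12 °C of 0.0817 to 0.383 in Chiifu and 0.115 to 0.553 in Kenshin. Of these 6, 5 met the rule in Kenshin and 0 in Chiifu, where their ratios of 28 °C to 22 °C were 0.421 to 1.07. The study had named these 6 among genes lowered by both low temperature and warming in Kenshin. Their fall in Kenshin was fixed by that choice and is no support for a difference between the lines. The 68 genes held none of the genes that the study discusses by identifier. With 68 genes out of 26948, a count of 0 in lists this short is no result about the 68 genes. The heat shock response genes had also been picked by the study for their levels after warming.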

How the data were processed

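The authors hybridised RNA of 6 samples to the Br135K microarray and deposited linear probe intensities for 41173 genes and 15 control features, with the probes of a gene already summarised to 1 value. The submitters' processing notes name RMA, with the version not given in the sources used here. Intensities were used as deposited, with no further normalization and with 50 added before ratios and logs. Arrays give no depth, and their number limits the precision. The study's methods describe a repeat with separately prepared RNA, but the deposited table holds 1 value per line and temperature. The p-values therefore set the line difference against its variation over the 3 temperatures plus array noise. They do not measure a spread between replicates. The 68 genes were found by the rule given above. The line difference was fitted in R 4.3.3 by limma 3.58.1 (temperature as a block, moderated by eBayes, 2 residual and 2.61 prior degrees of freedom, two-sided, Benjamini-Hochberg over 26948 genes, threshold 0.05). The fit was first run on simulated data with independent noise and no line difference that varied with temperature. That run does not cover the error rate in the present data. Everything else ran in Python 3.11.15 (scipy 1.17.1, numpy 2.4.6, pandas 2.3.3, matplotlib 3.10.9).

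The genes named are the 8 with the lowest largest ratio at 28 °C, the 6 of highest mean PI at 22 °C and 12 °C, the 4 most in excess in each line at both temperatures, the 3 that gained most and the 3 that lost most from 22 °C to 12 °C by the smaller change of the lines, and the 3 on either side of the limit of 0.4. Others named were chosen after their values were seen, among them those called by limma. The genes and the lists were chosen with earlier results of these data known. Green-tissue markers, promoter motifs and lists by product name were not run, since 1 array identifier matched the RefSeq table used here. Alternatives were 0, 25 or 100 added, other limits, minimum intensities and windows, quantile normalization, median scaling, and leaving out each temperature.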

Additional observations from a re-analysis of the deposited data

Results flagged for a closer look

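In 4 of the 68 genes the signal at 12 °C relative to 22 °C went in opposite directions in the lines, by at least 1.5-fold each way, with 1 sample for each line and temperature. For none of them was that difference tested. For Bra011549 this ratio was 2.91 in Chiifu but 0.554 in Kenshin. For Bra033351 the ratios were 2.17 in Chiifu and 0.507 in Kenshin. Bra036524 had 1.83 in Chiifu and 0.643 in Kenshin, and Bra019058 had 1.68 in Chiifu and 0.589 in Kenshin. The 22 °C sample of Chiifu was the lower of the 2 lines at 22 °C in all 4 genes.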

How the results depend on the processing

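The 68 genes became 151 with a limit of 0.5 in place of 0.4 and 25 with 0.3. With nothing added to the intensities there were 93 (67 shared with the 68), with 25 added 81 (68 shared), with 100 added 64 (62 shared), with quantile normalization 68 (66 shared), with median scaling 67 (65 shared), and with a 2-fold window for the ratio of 12 °C to 22 °C 47. Of the named genes, Bra003009 and Bra028907 lay above 0.4 under quantile normalization and median scaling, and these with Bra028290 and Bra034380 with 100 added. The 4 calls higher in Kenshin became 3 with 100 added and 2 with no minimum intensity. They became 2 without the 28 °C samples, 0 without the 22 °C samples and 0 without the 12 °C samples. The 3 calls higher in Chiifu became 2 with nothing added and 2 with no minimum intensity. They became 1 without the 28 °C samples, 0 without the 22 °C samples and 0 without the 12 °C samples. Fits without a temperature have 1 residual degree of freedom. Without the 22 °C samples 9 and 4 genes had an unadjusted p under 0.05, higher in Kenshin and in Chiifu. Without the 12 °C samples these counts were 20 and 5, compared with 13 and 4 with all samples. The shares of all genes in each direction at this unadjusted p were not counted, so these counts are a description. Bra013954 lost its call with nothing added (limma adjusted p = 0.0541), and Bra002257 with 100 added (limma adjusted p = 0.0535). With no minimum intensity, Bra002257 and Bra013954 (limma adjusted p = 0.0625 for each) and Bra031290 (limma adjusted p = 0.0518) lost theirs. With a cutoff of 1.5-fold, the genes higher at 12 °C in Chiifu went from 13 to 27 (11.5% of all genes at this cutoff), those higher in Kenshin from 3 to 8 (12.3%), and those lower in Kenshin from 4 to 13 (13.1%). Genes lower at 12 °C in Chiifu went from 2 to 1 under quantile normalization and to 1 under median scaling. The cause was not tested. The median ratios at 28 °C moved by less than 1.5-fold under each of these scalings and added values, and no value reversed. No paired analysis was possible because each line and temperature has 1 sample, so that no replicate number could serve as a block; the line fit already sets the lines against each other within each temperature.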
